A study of Mus musculus with 16 samples.

Results

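The genes described here encode small heat shock proteins and the main cytosolic HSP70 chaperones of mouse skeletal muscle: Hspb1, Hspb2, Hspb3, Hspb6, Hspb7, Hspb8, Cryab, Hspa1a, Hspa1b and Hspa8. They were chosen by name, 10 of the 45706 genes in the deposited table, and all 10 passed the filter on low counts that left 13792 genes for testing. Polyadenylated RNA of quadriceps muscle was sequenced from 8 libraries of mice whose Nampt gene was knocked out in skeletal muscle only (KO) and 8 libraries of wild-type mice (WT). NAMPT catalyses the slowest step in recycling nicotinamide to NAD. The labels give genotype, tissue and the RNA integrity number of each library. They name no Cre driver, treatment, age, sex or litter, and they do not say how many animals the libraries came from, so p-values measure only the spread between these libraries.

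Small heat shock proteins are chaperones that hold partly unfolded proteins in oligomers without using ATP, and in striated muscle several of them sit at the Z-disc and on desmin and actin filaments. HSP70 proteins refold or hand on such clients in an ATP-driven cycle with DNAJ co-chaperones and nucleotide exchange factors. HSC70, the product of Hspa8, is made at all times, while the intronless genes Hspa1a and Hspa1b are switched on by heat shock factor 1 (HSF1) after heat, protein damage or strenuous contraction. HSF1 binds DNA at repeats of the unit GAA and its complement TTC in alternating orientation.

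Upstream sequences are shown for Hspa1a and Hspa1b, which varied most between libraries, and for Hspb1, which varied with them. Each is the 250 bases before the annotated start in RefSeq on build GRCm38.p6, written 5′ to 3′ on the strand of the gene, with matches to GAANNTTC in capitals. The Hspa1a window is chr17:34972157-34972406 and the Hspa1b window chr17:34959239-34959488, both on the minus strand, and the Hspb1 window is chr5:135887669-135887918 on the plus strand.
Hspa1a: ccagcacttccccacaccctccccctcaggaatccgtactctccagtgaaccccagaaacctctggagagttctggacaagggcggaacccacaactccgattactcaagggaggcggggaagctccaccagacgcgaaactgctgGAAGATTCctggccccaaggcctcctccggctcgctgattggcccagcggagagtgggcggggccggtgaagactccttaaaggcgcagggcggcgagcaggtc
Hspa1b: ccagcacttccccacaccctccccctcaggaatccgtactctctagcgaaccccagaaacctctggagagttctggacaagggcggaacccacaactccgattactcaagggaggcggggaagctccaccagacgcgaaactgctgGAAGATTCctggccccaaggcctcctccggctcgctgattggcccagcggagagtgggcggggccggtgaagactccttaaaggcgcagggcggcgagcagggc
Hspb1: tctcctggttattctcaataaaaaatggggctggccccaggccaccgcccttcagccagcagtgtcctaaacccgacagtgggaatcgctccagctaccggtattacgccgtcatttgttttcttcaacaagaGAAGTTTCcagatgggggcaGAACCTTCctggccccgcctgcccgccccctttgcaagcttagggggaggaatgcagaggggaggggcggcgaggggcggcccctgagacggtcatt
All 3 windows hold GAANNTTC. In Hspa1a and Hspa1b the match begins 104 bases upstream of the start, and the whole windows differ at 3 of 250 bases. The window of Hspb1 holds 2 matches, which begin 117 and 97 bases upstream. GAANNTTC and TTCNNGAA were both searched, each of which reads the same on both strands, and all matches in the windows of the members were to GAANNTTC. Of all 32851 RefSeq windows of this length, 6.69% hold GAANNTTC, 7.17% hold TTCNNGAA and 12.8% hold either. Entries were found for 7 of the 10 genes, in 8 windows, and 5 windows hold a match, those of Hspb3 at 224 bases upstream and of the second Hspb6 start at 120 bases upstream among them. The windows of Hspb7, Hspb8 and the first Hspb6 start hold none, and Cryab, Hspb2 and Hspa8 were not looked up further. A run of 3 such units with the same spacing was in 0 of the 8 windows and in 0.466% of all windows. A match describes these letters only and does not show binding.

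The libraries held 16065394 to 51881258 estimated counts each. Levels are given in CPM, counts scaled to a common library size. Nampt, the targeted gene, had 60.4 to 88.7 CPM in KO libraries, against 125.5 to 161.1 CPM in WT libraries, with no overlap (edgeR quasi-likelihood log2 fold change -0.95 ± 0.07 SE, adjusted p = 9.68e-07). The 6 defining skeletal muscle genes, Acta1, Ckm and Myh4 among them, summed to 120579 to 146123 CPM in KO and 125067 to 153563 CPM in WT. RNA without a poly(A) tail, from 6 genes of which 2 were tested, summed to 2.15 to 42.2 CPM in KO and 1.32 to 18.4 CPM in WT. KO libraries 1, 3, 5 and 8 held the most of it. Both tested genes, Rn7sk and Rmrp, had an unadjusted p under 0.05, with log2 fold changes of 1.65 and 2.051 (edgeR, adjusted p = 0.375 and 0.322). In whole tissue, fewer cells of a type and less RNA per cell cannot be told apart.

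None of the 10 genes differed between KO and WT beyond the spread between libraries. The number called at an adjusted p under 0.05 was 0 of 10, and 0 of 10 had an unadjusted p under 0.05 (edgeR quasi-likelihood test, Benjamini-Hochberg over all tested genes). Over all 13792 genes 6 were called, or 0.0435% (0.0218% higher and 0.0218% lower in KO), and 9.57% had an unadjusted p under 0.05. DESeq2 called 0 of the 9 members to which it gave an adjusted p, all but Hspb3, against 101 of the 24976 genes it fitted. With limma-voom 0 of the 10 were called, against 5 of 13792 genes. In either method 0 of the 10 had an unadjusted p under 0.05, against 1478 genes in DESeq2 and 1338 in limma-voom. The log2 fold change of KO over WT was above 0 in 3 genes and below 0 in 7, with a median of -0.07, against 51.8% of all tested genes above 0 and a median of 0.00. The 95% interval lay inside a 1.5-fold change for 8 of the 10 genes, all but Hspa1a and Hspa1b, and for 86.2% of all tested genes. KO and WT libraries overlapped in all 10 genes, that is 0 of 10 were separate, and 0.123% of tested genes had groups that did not overlap.

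**Figure D1:**
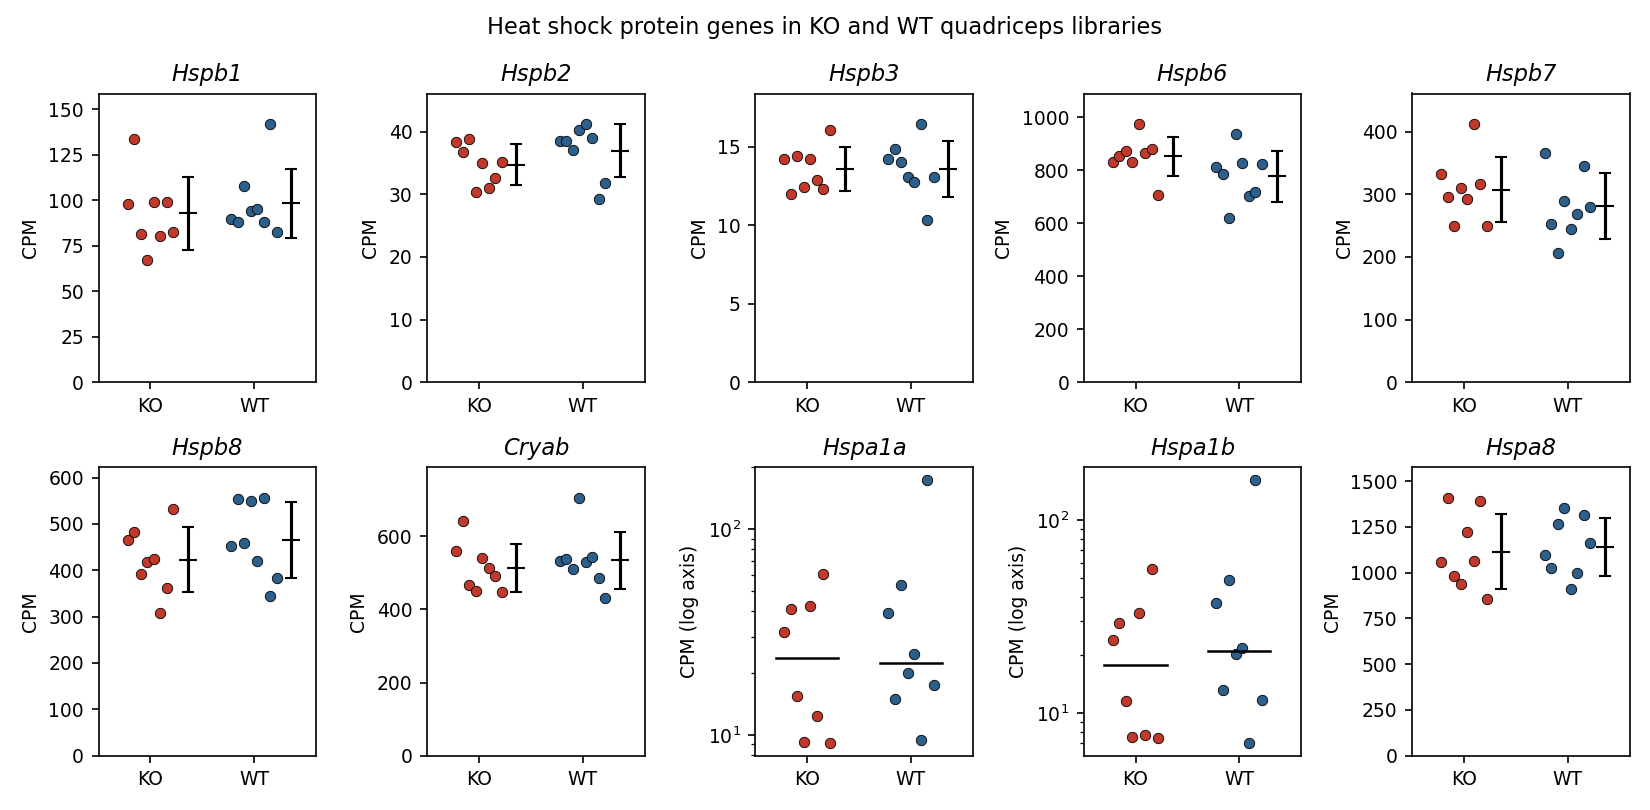
CPM of the 10 heat shock protein genes in each library, with KO in red on the left and WT in blue on the right; bars are mean ± SD (n = 8 each), and the lines in the Hspa1a and Hspa1b panels, which have log axes, are medians. The groups overlap in every panel, and the highest Hspa1a and Hspa1b points are WT library 7 at 173 and 161 CPM.

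Hspb1 encodes the mouse form of HSP27, which caps actin filaments and is phosphorylated under stress. Its lowest, median and highest values were 66.9, 90.5 and 134 CPM in KO and 82.7, 91.9 and 142 CPM in WT. KO library 2 and WT library 7 stood highest in their groups, and the medians lay within 2 CPM of each other. The means were 92.8 ± 20.1 CPM in KO and 98.4 ± 19.0 CPM in WT (SD, n = 8 each), a log2 fold change of -0.09 ± 0.13 (SE) (edgeR, adjusted p = 0.879; 95% interval -0.35 to 0.18). Of the 52-base words of its transcript, the read length, 51.3% also occur in the gene model Hsp25-ps1, which had a mean of 0.568 CPM.

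Cryab encodes alpha B-crystallin, a chaperone of desmin and titin. It ran from 448 over a median of 502 to 642 CPM in KO and from 431 over 531 to 705 CPM in WT. The highest values were KO library 2 and WT library 4, and the ranges lay almost on top of each other. The means were 514 ± 65.9 CPM in KO and 534 ± 78.3 CPM in WT (SD, n = 8 each; log2 fold change -0.06 ± 0.09 SE, edgeR adjusted p = 0.893).

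Hspb6, which encodes HSP20, a partner of actin and of 14-3-3 proteins, had the lowest p of the 10 genes. It ran from 708 over a median of 861 to 973 CPM in KO and from 619 over 799 to 936 CPM in WT. Of the 8 KO libraries 7 lay above the WT mean, yet the groups overlapped over most of their range. The means were 852 ± 73.6 CPM in KO and 778 ± 96.6 CPM in WT (SD, n = 8 each; log2 fold change 0.13 ± 0.07 SE), with an unadjusted p of 0.0907 and an adjusted p of 0.605 by edgeR. Leaving out 1 library gave log2 fold changes from 0.09 to 0.18. Without WT library 4 the log2 fold change was 0.18 and without KO library 8 it was 0.17 (edgeR, unadjusted p = 0.0198 and 0.0304, adjusted p = 0.466 and 0.476). Without WT library 3 it fell to 0.09 and without KO library 5 to 0.10 (edgeR, unadjusted p = 0.184 and 0.186, adjusted p = 0.684 and 0.738). The 95% interval, -0.02 to 0.29 on the log2 scale, leaves room for a value a little below WT and for one moderately above it.

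Hspb7 encodes a muscle chaperone tied to filamin C and the thin filament. It ran from 249.2 over a median of 303 to 412 CPM in KO and from 207 over 275 to 366 CPM in WT. KO library 6 was highest and WT library 3 lowest, and the groups overlapped. The log2 fold change was 0.13 ± 0.11 (SE; edgeR, adjusted p = 0.774).

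Hspb8 encodes HSP22, which works with BAG3 and HSP70 to send damaged filamin to autophagy. It ran from 308 over a median of 421 to 533 CPM in KO and from 345 over 456 to 556 CPM in WT. The lowest library was KO 6 and the highest WT 6, and the other libraries of both groups lay between them. The log2 fold change was -0.14 ± 0.11 (SE; edgeR, adjusted p = 0.760). Bag3 itself averaged 167 ± 18.7 CPM in KO and 168 ± 19.9 CPM in WT (SD, n = 8 each), a log2 fold change of -0.00 (edgeR, adjusted p = 0.994).

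Hspb2 and Hspb3 encode muscle proteins that form a complex with each other. Hspb2 ran from 30.3 over a median of 35.1 to 38.8 CPM in KO and from 29.2 over 38.6 to 41.2 CPM in WT (log2 fold change -0.09 ± 0.07 SE, edgeR adjusted p = 0.759). Hspb3 ran from 12.0 over 13.53 to 16.0 CPM in KO and from 10.4 over 13.55 to 16.4 CPM in WT (log2 fold change 0.00 ± 0.08 SE, edgeR adjusted p = 1.00). WT library 7 was the lowest of all 16 libraries for both genes, and in each gene the KO range lay inside the WT range. Hspb2 lies head to head with Cryab on chromosome 9 of GRCm38, Hspb2 from 50751078 to 50752354 on the minus strand and Cryab from 50751325 to 50756636 on the plus strand. They share 252 exon bases. The strand setting of the counting is not given in the sources used here. Estimated counts of both genes were whole numbers in every library, such as 14450 for Cryab and 991 for Hspb2 in KO library 1. Hspa1a and Hspa1b, which share sequence, had 820.108 and 615.5 there. The values thus show no fractional split of reads between Cryab and Hspb2, and how reads from the shared bases were assigned was not tested. Cryab had a mean of 524 CPM against 35.8 CPM for Hspb2, so Hspb2 would be the more exposed to any sharing.

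Hspa8 encodes HSC70, the constitutive cytosolic HSP70. It ran from 858 over a median of 1058 to 1408 CPM in KO and from 912 over 1127 to 1355 CPM in WT. KO libraries 2 and 7 and WT libraries 4 and 7 were highest, and the groups overlapped nearly throughout. The means were 1114 ± 205 CPM in KO and 1140 ± 160 CPM in WT (SD, n = 8 each; log2 fold change -0.03 ± 0.11 SE, edgeR adjusted p = 0.956). Of the 52-base words of its longest coding transcript 72.9% also occur in 11 other genes on the same strand, among them the gene model Gm15459 at a mean of 16.0 CPM.

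Hspa1a and Hspa1b encode the inducible HSP70 and had the widest ranges by far. Hspa1a ran from 9.19 over a median of 23.7 to 60.8 CPM in KO and from 9.47 over 22.3 to 173 CPM in WT. Hspa1b ran from 7.44 over 17.7 to 55.8 CPM in KO and from 7.02 over 21.0 to 161 CPM in WT. WT library 7 alone set the top of the range in both genes, and the 7 other WT libraries lay inside or just beside the KO range. The means were 27.8 ± 19.1 CPM in KO and 44.0 ± 54.1 CPM in WT for Hspa1a, and 22.02 ± 17.1 CPM in KO and 40.2 ± 50.9 CPM in WT for Hspa1b (SD, n = 8 each). The log2 fold changes were -0.69 ± 0.55 (SE) for Hspa1a and -0.89 ± 0.59 (SE) for Hspa1b (edgeR, adjusted p = 0.750 and 0.682). The 95% intervals reached from -1.85 to 0.48 and from -2.13 to 0.35, so these libraries leave room for a change of more than 1.5-fold downward in either gene.

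Those negative values rested mostly on WT library 7. Without WT library 7 the log2 fold change was 0.10 for Hspa1a (edgeR, adjusted p = 0.973) and -0.08 for Hspa1b, and that of Hspb1 was 0.01. Without KO library 7 it was -0.97 for Hspa1a and -1.28 for Hspa1b (edgeR, unadjusted p = 0.106 and 0.0481, adjusted p = 0.582 and 0.479). The highest values after WT library 7 were 60.8 and 55.8 CPM in KO library 7 and 53.4 and 49.2 CPM in WT library 3, for Hspa1a and Hspa1b in that order. These 3 libraries are also the 3 with the most estimated counts. Over the 16 libraries the rank correlation with total counts was 0.21 for Hspa1a and 0.22 for Hspa1b. Within WT it was 0.60 for Hspa1a, 0.62 for Hspa1b, 0.60 for Hspb1 and 0.74 for Hspa8. Within KO it was -0.02, -0.02, -0.24 and -0.19 in that order, and the values within 1 genotype were not tested. Over both genotypes, none of 30 relations of the 10 genes with total counts, RNA integrity number or RNA without a poly(A) tail passed (permutation test, lowest adjusted p 0.851).

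**Figure D2:**
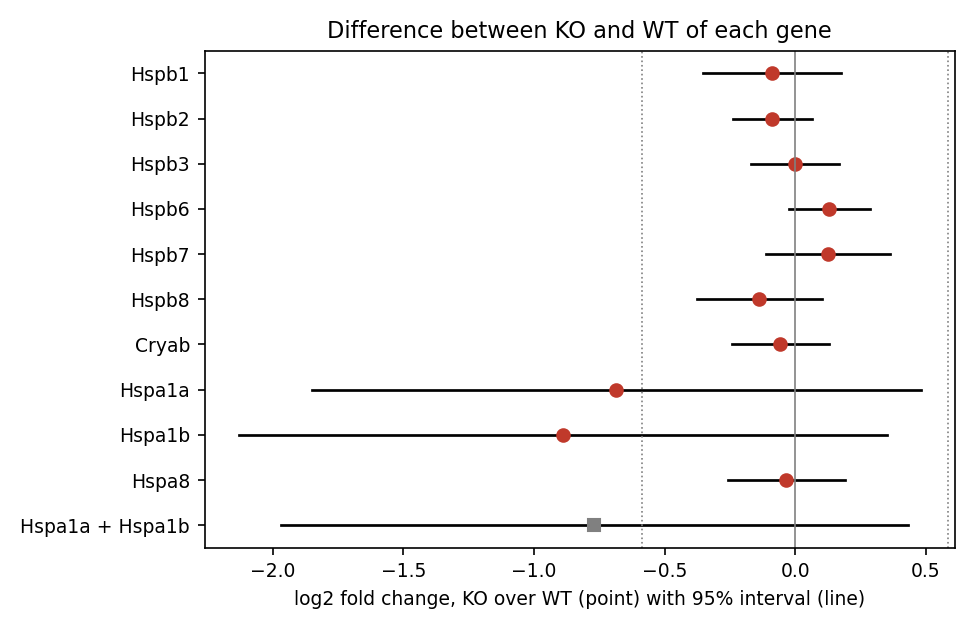
Log2 fold change of KO over WT (points) with 95% intervals (lines) for the 10 genes and for the sum of Hspa1a and Hspa1b (square); dotted lines mark a 1.5-fold change. Only the intervals of Hspa1a, Hspa1b and their sum cross a dotted line, that of a 1.5-fold decrease.

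Hspa1a and Hspa1b lie on the minus strand of chromosome 17, from 34969190 to 34972156 and from 34956436 to 34959238, with 9951 bases between them. Their coding sequences of 1926 and 1929 bases differ at 8 bases and 3 gap bases, an identity of 99.6%. Of their 52-base words 59.8% and 61.8% occur in another gene on the same strand, in most cases each other. Counts of one are therefore uncertain against the other. Hspa1a held between 49.6% and 61.8% of their summed CPM in every library. The sum was 49.8 ± 36.2 CPM in KO and 84.2 ± 105 CPM in WT (SD, n = 8 each; log2 fold change -0.77 ± 0.57 SE, edgeR adjusted p = 0.719), and 0.03 on the log2 scale without WT library 7.

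Per kilobase of annotated exon, levels differed widely between the members. Hspb6 and Cryab averaged 355 and 354 CPM per kilobase over the 16 libraries, Hspa8 262, Hspb8 228, Hspb7 106 and Hspb1 92.7 CPM per kilobase. Hspb2 averaged 43.0, Hspb3 17.4, Hspa1a 12.1 and Hspa1b 11.1 CPM per kilobase. The order of Hspb6 and Cryab held in 8 of 16 libraries, and that of Hspa8 over Hspb8 and of Hspb7 over Hspb1 in 12 of 16 each. Hspb8 exceeded Hspb7, Hspb1 exceeded Hspb2 and Hspb2 exceeded Hspb3 in all 16 libraries, without overlap of their ranges. With the length of the longest coding transcript in place of all exons, Hspb6 came to 598, Hspa8 to 471 and Cryab to 469 CPM per kilobase, which puts Hspa8 level with Cryab.

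The spread between libraries set Hspa1a and Hspa1b apart from the other members. The highest library exceeded the lowest 18.8-fold for Hspa1a and 23.0-fold for Hspa1b, and between 1.41-fold and 2.12-fold for the other 8 genes. Within genotypes the SD on the log2(CPM + 0.5) scale was 1.18 for Hspa1a and 1.26 for Hspa1b, ranks 19 and 12 among the 12238 genes with a mean of at least 1 CPM. It was 0.27 for Hspb1, 0.25 for Hspb7 and Hspb8, 0.23 for Hspa8, 0.19 for Cryab, 0.16 for Hspb3 and Hspb6 and 0.15 for Hspb2. The median gene had 0.14 and the gene at the 90th percentile 0.30. Both genotypes showed the wide spread of the inducible pair, with SDs of 1.06 in KO and 1.29 in WT for Hspa1a.

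**Figure D3:**
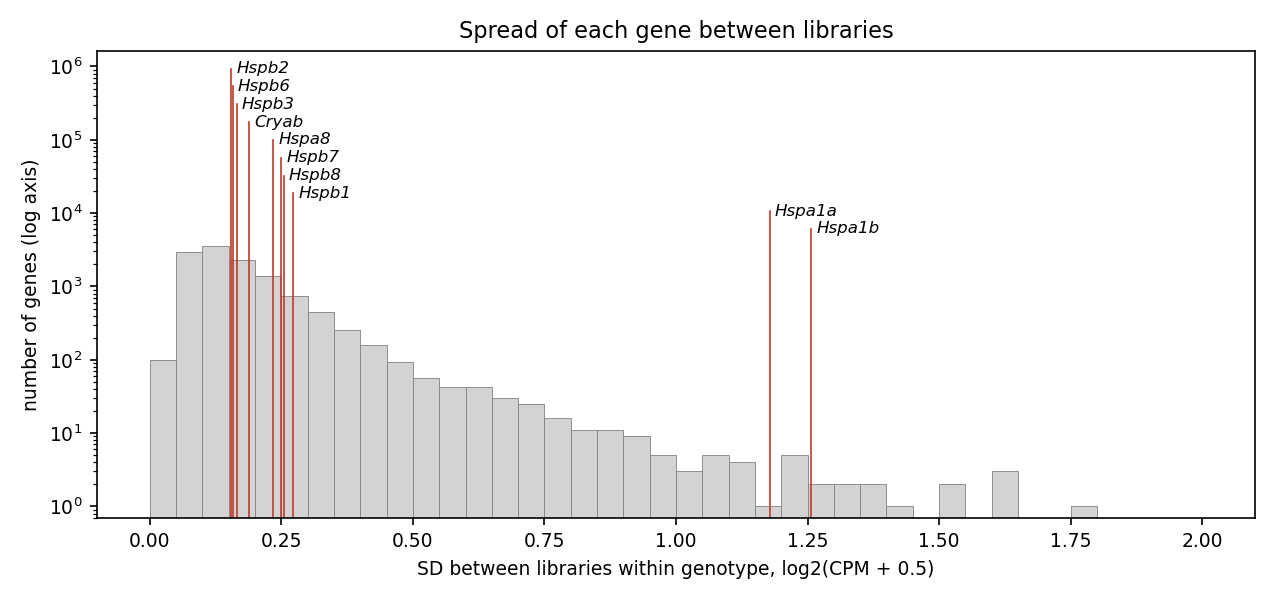
Histogram of the SD between libraries within genotype, on the log2(CPM + 0.5) scale, over 12238 genes (log count axis), with red lines at the 10 heat shock protein genes. Hspa1a and Hspa1b stand at 1.18 and 1.26, and the other 8 genes between 0.15 and 0.27.

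Hspb1 and Hspa8 varied from library to library together with Hspa1a and Hspa1b, and the other small heat shock proteins did not pass for any pair. Relations were computed over 16 libraries on log2(CPM + 0.5) with genotype means removed, with 100000 permutations within genotype and Benjamini-Hochberg adjustment over 85 relations. Of 45 pairs of members 5 passed, all positive. Hspb1 followed Hspa1b with a Spearman rho of 0.86 (permutation p = 0.00018, adjusted p = 0.00765) and a Pearson r of 0.81 (permutation p = 0.00039, adjusted p = 0.0105). Without KO library 2 and WT library 7, the 2 farthest from the Hspb1 median, r was 0.80, and rho was 0.79 within KO and 0.90 within WT. Hspb1 and Hspa1a gave a rho of 0.82 and an r of 0.84 (permutation, adjusted p = 0.0116 and 0.00977; raw p = 0.00041 and 0.00023), with r at 0.81 without those 2 libraries. Both pairs passed in all 16 repeats that left out 1 library. The pair Hspa1a and Hspa1b had a rho of 0.98, the smallest adjusted p that these permutations can give (0.00085), and reads of the 2 genes cannot be fully told apart.

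Whether the relation of Hspa8 to the inducible pair passed the threshold depended on which libraries were kept, while its rho stayed positive. Hspa8 had a rho of 0.73 with Hspa1b and 0.71 with Hspa1a (permutation, adjusted p = 0.031 and 0.039; raw p = 0.00255 and 0.00367), and r was 0.69 and 0.71 (adjusted p = 0.0301 and 0.03). Without KO library 7 and WT library 7, r was 0.61 and 0.65. Within KO rho was 0.86 for both, and within WT it was 0.43 and 0.48. These relations passed in only 5 and 7 of the 16 repeats that left out 1 library, with rho between 0.62 and 0.80. Both were lost without any one of KO libraries 1, 2, 4, 5, 7 or 8 or WT libraries 2, 3 or 6, and that with Hspa1b also without WT library 1 or 7. Hspb1 and Hspa8 gave a rho of 0.63, which missed the threshold (permutation p = 0.0144, adjusted p = 0.111), and an r of 0.69 (adjusted p = 0.0331).

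Cryab had a rho of 0.19 with Hspa1b (adjusted p = 0.726) and 0.37 with Hspb1 (adjusted p = 0.532). Its largest rho among members was 0.56 with Hspb2, the gene it shares exon bases with (permutation p = 0.0326, adjusted p = 0.213). Hspb3 had negative values with Hspa8, Hspa1a and Hspa1b, with rho of -0.54, -0.53 and -0.51, none of which passed (permutation, adjusted p = 0.243, 0.243 and 0.289). Over the 45 pairs the median rho was 0.15, and 28 were above 0.

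**Figure D4:**
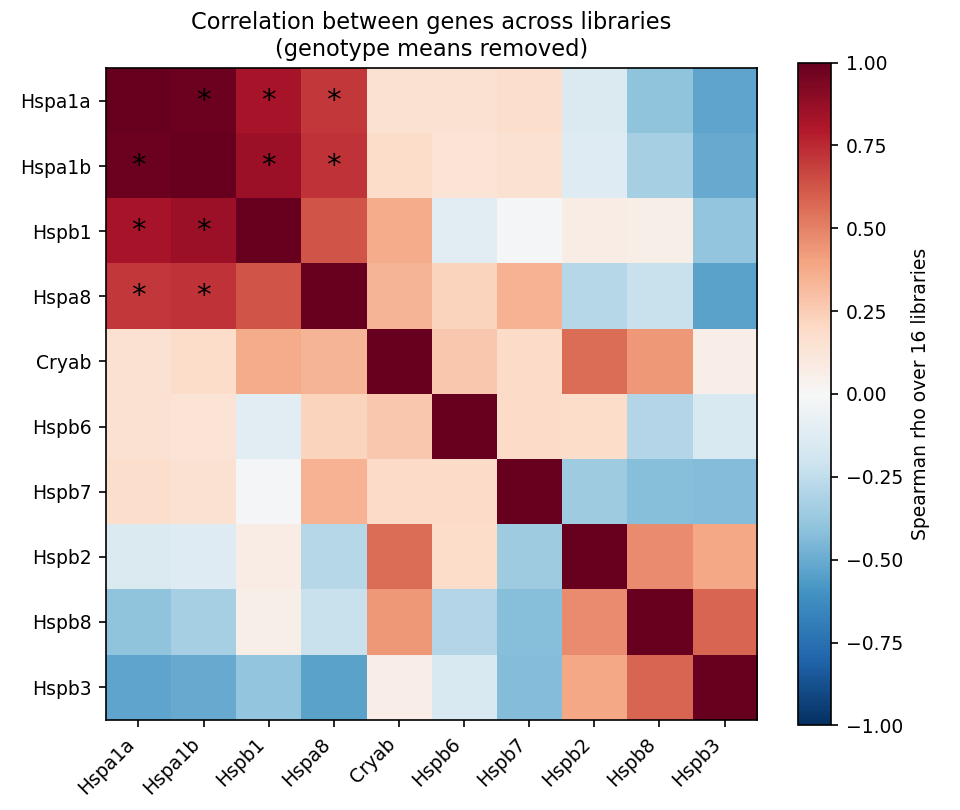
Spearman rho of each pair of the 10 genes over 16 libraries with genotype means removed, from blue (negative) to red (positive); stars mark adjusted permutation p under 0.05. The 5 starred pairs join Hspa1a, Hspa1b, Hspb1 and Hspa8, with rho from 0.71 to 0.98.

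Each member was also set against 4 other genes in the same family of relations. Dnajb1, the HSP40 partner of inducible HSP70, had a rho of 0.49 with Hspa1b (permutation p = 0.0638, adjusted p = 0.301). Its 2 highest libraries, WT 3 at 18.5 CPM and KO 7 at 16.9 CPM, are those next to the top for Hspa1b. WT library 7, highest for Hspa1a and Hspa1b, had 4.90 CPM of Dnajb1, among the lowest. Without that library the rho of Dnajb1 with Hspa1b was 0.80 and passed. Of the 16 repeats that left out 1 library, this was the only 1 in which the pair passed, with rho from 0.37 to 0.80. WT library 7 was singled out after its values had been seen, so this pass is a description only. Of Myh7, the slow myosin, and Fos, an immediate early gene, none of the relations with the 10 members passed.

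Pecam1, a marker of endothelial cells, passed with Hspb1, Hspa1b and Hspa1a. Its rho was 0.77 with Hspb1, 0.76 with Hspa1b and 0.74 with Hspa1a (permutation, adjusted p = 0.0206, 0.0248 and 0.0296), and r was 0.70, 0.80 and 0.79. Hspa8 and Hspb3 passed with Pecam1 by r only, with an r of 0.71 and -0.68 (permutation, adjusted p = 0.0301 and 0.0437) and a rho of 0.66 and -0.65 (adjusted p = 0.0723 and 0.0851). For Hspb1, Hspa1b and Hspa1a, without the 2 libraries farthest from the member's median, r was 0.63, 0.70 and 0.67. In the repeats that left out 1 library, the rho with Hspb1, Hspa1b and Hspa1a was at least 0.74, 0.70 and 0.71. The relations with Hspb1 and Hspa1a missed the threshold without KO library 1 or KO library 5, and that with Hspa1b without WT library 7. The 8 endothelial markers summed to 276 to 328 CPM in KO and 250 to 291 CPM in WT, and 0 of the 8 were called. Of them 3 had an unadjusted p under 0.05 (edgeR), against 9.57% of all tested genes. Of the 8 markers 1, Pecam1, passed with Hspa1b and with Hspb1 in a wider set of 112 relations, and the median rho over the 8 was 0.23 with Hspa1b and 0.21 with Hspb1. The part of endothelial RNA in these relations was not tested.

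That wider set took Hspa1b, Hspb1, Hspa8 and Cryab against 20 genes known as HSF1 targets and the 8 endothelial markers, and was chosen after values had been seen. A pair passed here when both rho and r had an adjusted permutation p under 0.05. Hspa1b passed with Dnajb4, a muscle DNAJ co-chaperone (rho 0.90), Dnaja1 (0.87) and Hsp90aa1, the inducible cytosolic HSP90 (0.87). Hspb1 passed with Hsp90aa1 (0.89), Dnaja1 (0.84), Dnajb4 (0.76) and Stip1, which links HSP70 to HSP90 (0.71). Hspa8 passed with Hsp90aa1 (0.80), Dnaja1 (0.80) and Dnajb4 (0.70). The adjusted p of rho ran from 0.00187 for Hspa1b with Dnajb4 to 0.0457 for Hspa8 with Dnajb4, and without the 2 farthest libraries r was between 0.54 and 0.85 in these 10 pairs. Cryab passed with 0 of the 20 HSF1 targets by rho and with 5 by r, Hsph1 with the largest (r 0.82, and 0.47 without the 2 farthest libraries). By r alone, 5 of the 20 passed with Hspa1b, 11 with Hspb1 and 11 with Hspa8. Cryab also passed with the endothelial marker Emcn (rho 0.73, permutation, adjusted p = 0.0344). Over the 8 endothelial markers, however, its median rho was -0.12, and only 2 of the 8 were above 0. Over the 20 targets Cryab had a median rho of 0.34, against 0.43 for Hspa1b, 0.52 for Hspb1 and 0.55 for Hspa8. The difference between these genes was not tested.

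**Figure D5:**
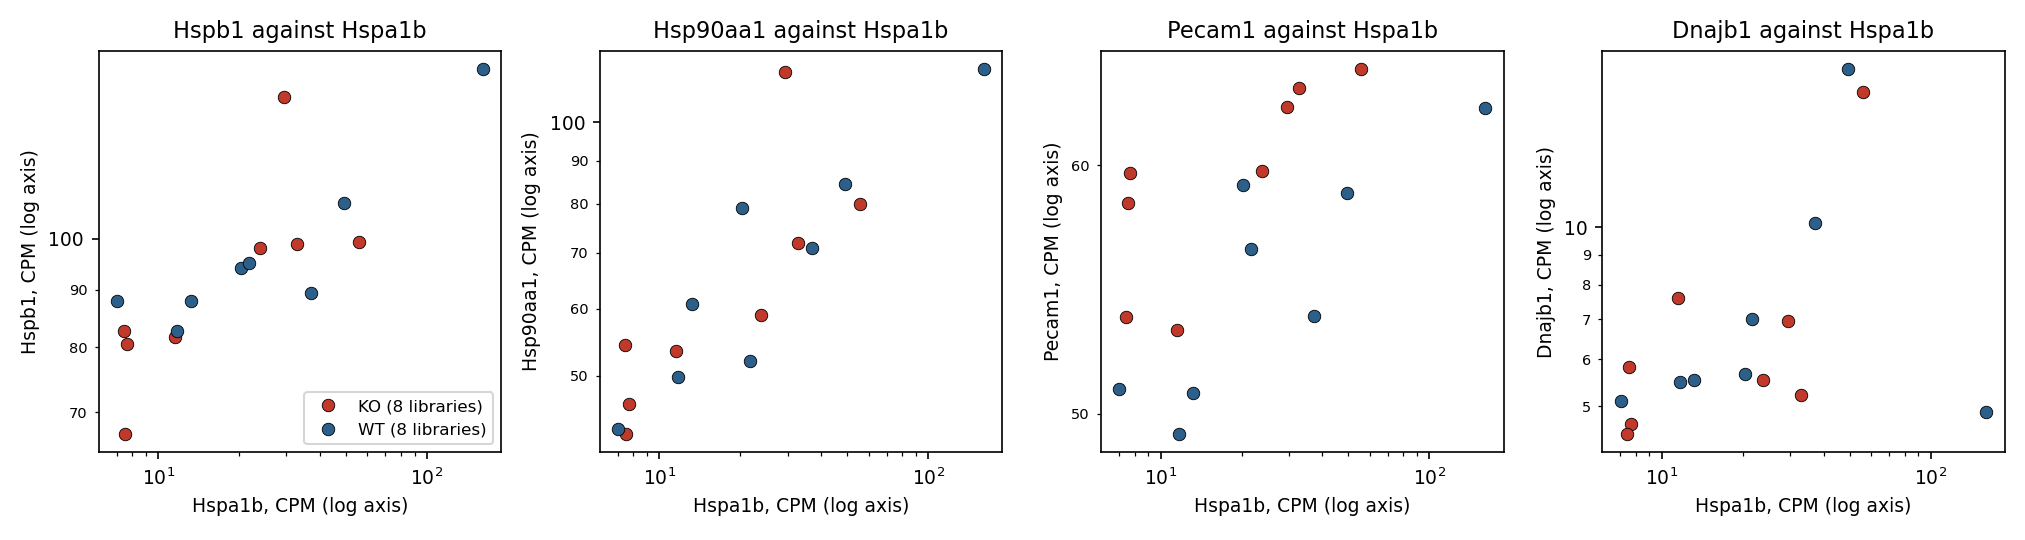
CPM of Hspb1, Hsp90aa1, Pecam1 and Dnajb1 against CPM of Hspa1b, 1 point per library (KO red, WT blue, log axes). Hspb1 and Hsp90aa1 climb with Hspa1b over both genotypes, and in the Dnajb1 panel WT library 7, the point farthest right, lies near the bottom at 4.90 CPM.

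Among 12228 genes of at least 1 CPM, those closest to each member in Spearman rho over the 16 libraries were named as a description. No test was made, and the largest of so many values are high by selection. For Hspa1b they were Nle1 (0.94), Slc20a1 (0.92) and Nfil3 (0.91), and for Hspa1a Nle1 (0.94), Slc20a1 (0.93) and Dnajb4 (0.93). For Hspb1 they were Hsp90aa1 (0.89), Nfil3 (0.85) and Dnaja1 (0.84). Nfil3 appears beside both Hspb1 and Hspa1b, which had a rho of 0.86 with each other, so this is not a separate result. Cryab was closest to Cycs (0.89), which encodes cytochrome c, Rnf149 (0.89) and Coa3 (0.83), and Hspa8 to Naa20 (0.91), Sf1 (0.84) and Gm15459 (0.84), the last of which shares 69.6% of the 52-base words of Hspa8. Hspb7 was closest to Gtpbp10 (0.89), Cdc27 (0.87) and Actn2 (0.86), the last encoding alpha-actinin of the Z-disc. Hspb6 was closest to Map4k5 (0.87), Wdfy3 (0.82) and Nos1 (0.82), and Hspb8 to Arl2bp (0.92), Dhcr7 (0.91) and Nhp2 (0.91). Hspb2 was closest to Nedd4l (0.89), Nwd1 (0.88) and Supt3 (0.88), and Hspb3 to Igsf3 (0.87), Cnst (0.86) and Bola1 (0.85).

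The wider chaperone network gave no called gene either. Of the 20 HSF1 targets 0 were called and 19 lay below 0 in KO, with a median log2 fold change of -0.06, against 48.2% of all tested genes below 0. The count below 0 was 14 without WT library 7 and 12 without KO libraries 1, 3, 5 and 8. The lowest p among them was that of Hsph1, an HSP110 exchange factor for HSP70, at 109 ± 22.3 CPM in KO libraries and 139 ± 26.5 CPM in WT (SD, n = 8 each; log2 fold change -0.35, unadjusted p = 0.0101, edgeR adjusted p = 0.337). Hsf1 itself averaged 35.3 ± 2.83 CPM in KO and 37.4 ± 2.62 CPM in WT (SD, n = 8 each; log2 fold change -0.08, edgeR adjusted p = 0.682).

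HSP90 and its co-chaperones lay below 0 in 13 of 15 genes, with Smyd1, a muscle lysine methyltransferase, at 462 ± 21.6 CPM in KO libraries and 525 ± 32.4 CPM in WT (SD, n = 8 each; log2 fold change -0.19, edgeR adjusted p = 0.148). DNAJ co-chaperones lay below 0 in 10 of 13, with Dnaja2 at a log2 fold change of -0.12 (edgeR, adjusted p = 0.195), and chaperonins in 8 of 10. The lists overlap, since Hsp90ab1 and the chaperonin Hspd1 are also among the HSF1 targets, so these counts are not independent of each other. Other HSP70 genes lay above 0 in 6 of 11, chaperones of the endoplasmic reticulum in 7 of 13 and small heat shock protein clients at the Z-disc in 6 of 13. Among those clients Ttn, Tpm2 and Des had log2 fold changes of 0.11, 0.12 and -0.07 (edgeR, adjusted p = 0.812, 0.664 and 0.623). An unadjusted p under 0.05 was found for 1 of the HSP90 group, 2 of the DNAJ group and 2 of the other HSP70 genes (edgeR). The same held for 2 of 11 nucleotide exchange and HSP70 regulators, 1 of the Z-disc clients and none of the chaperonins or endoplasmic reticulum chaperones. Over all tested genes the share was 9.57%. Slow fibre markers lay above 0 in 8 of 8, with summed levels of 540 to 952 CPM in KO and 243 to 974 CPM in WT, and 0 were called or had an unadjusted p under 0.05 (edgeR). Pericyte and smooth muscle markers lay above 0 in 6 of 7, with a median log2 fold change of 0.13, summed levels of 374 to 452 CPM in KO and 364 to 405 CPM in WT, 0 called and 4 at an unadjusted p under 0.05. Immediate early genes lay above 0 in 9 of 11, with a median of 0.27, summed levels of 284 to 569 CPM in KO and 287 to 517 CPM in WT, and 0 were called or had an unadjusted p under 0.05. Endothelial markers lay above 0 in 6 of 8, macrophage in 6 of 6, satellite cell in 4 of 4 tested and Schwann cell markers in 5 of 6. Fibro-adipogenic and adipocyte markers lay above 0 in 4 of 6 each, and fast fibre markers below 0 in 6 of 8. None of these was called, and 3 endothelial, 2 fast fibre and 1 satellite cell marker had an unadjusted p under 0.05 (edgeR). The part of these groups in the chaperone values was not tested.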

How the data were processed

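Polyadenylated RNA of mouse quadriceps was sequenced as 52-base paired reads, per the labels' protocols. Per the submitters' processing notes, the authors used bcl2fastq 4.0.3, STAR and Salmon with GRCm38. Other versions, the annotation and the strand setting: not given in the sources used here. Estimated counts per gene were deposited by the authors, made with Salmon per the submitters' processing notes and not scaled to depth. Fractional values made up 11.1% of the table, and all were rounded. Genotypes came from the labels.

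KO and WT were compared with edgeR 4.0.16 (R 4.3.3), quasi-likelihood F test, TMM scaling, its default filter on low counts, no covariates and Benjamini-Hochberg adjustment over 13792 genes; genes left out held 0.0705% of counts. Standard errors were derived from the F statistic. CPM used TMM-scaled library sizes. Correlations used log2(CPM + 0.5) and permutations within genotype. No pair of libraries was a duplicate: chi-square per degree of freedom was at least 8.09 in KO and 9.42 in WT. Coordinates came from GENCODE on GRCm38, where 99.5% of tested identifiers matched, and upstream windows from RefSeq. The gene test was checked on simulated counts.

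The 10 genes and the gene lists were chosen with earlier results of these data known. Named genes are Nampt, the 10 members, up to 3 members of each list by mean CPM, and the 3 genes closest to each member in rho; the others were named after their values were seen. Alternatives were other scalings (RLE, upper quartile), filters, DESeq2 1.42.0, limma 3.58.1, the replicate block, the RNA integrity number as a covariate, left-out libraries and Hspa1a and Hspa1b summed.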

Additional observations from a re-analysis of the deposited data

Results flagged for a closer look

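Cryab in WT library 4, at 705 CPM, stood apart from the other 7 WT libraries, which lay between 431 and 544 CPM. On the log2(CPM + 0.5) scale its gap to the next library was 0.528 of the whole WT range, just above the critical value of Dixon for 8 samples. That scale decides which libraries stand apart. On the CPM scale the gap of Cryab was 0.588 of the range, and WT library 7 also passed, with 0.577 for Hspb1, 0.732 for Hspa1a and 0.727 for Hspa1b, against 0.511, 0.410 and 0.385 on the log2 scale. Among the 22 groups looked at, 11 genes in each genotype, chance alone would set apart about 1 in 20. Without WT library 4 the log2 fold change of Cryab was 0.01.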

How the results depend on the processing

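All alternatives called 0 of the 10 heat shock genes. Over all tested genes the count of called genes was 6, and it was 2 with RLE scaling, 3 with no filter, 101 with DESeq2 (13 higher, 88 lower), 2 with the replicate block and 2 without the 4 KO libraries richest in RNA without a poly(A) tail; leaving out 1 library gave 2 to 8. The log2 fold change of Hspb3 was 0.00 in the analysis reported and -0.00189 with RLE scaling, -0.00042 with no filter and -0.00252 with DESeq2, which gave it no adjusted p. Without those 4 KO libraries Hspb3 was at -0.128 and Hspa8 at 0.0731. Leaving out 1 library gave -0.18 to 0.00649 for Hspb1, -0.0504 to 0.0429 for Hspb3, -0.11 to 0.0125 for Cryab, -0.97 to 0.10 for Hspa1a, -1.28 to -0.08 for Hspa1b, -0.0893 to 0.0132 for Hspa8 and -1.09 to 0.0270 for Hspa1a and Hspa1b summed. WT library 7 gave the upper end for Hspb1, Hspa1a, Hspa1b and their sum; the cause was not tested. The count of correlated pairs, 5, ranged from 3 to 6 over those repeats. Same-numbered KO and WT libraries deviated together with correlations from -0.11 to 0.25, and 2 of 8 correlated best with their own number. These values cannot decide whether the numbers pair the libraries, since a correlation over all tested genes can miss a pairing that touches few genes. With the replicate block the log2 fold change was -0.41 for Hspa1a, -0.60 for Hspa1b and -0.48 for their sum (edgeR, adjusted p = 0.740, 0.598 and 0.690). The lowest adjusted p of a member over all alternatives was 0.450. At this depth and spread, with all 16 libraries, a 1.5-fold decrease was within the intervals of Hspa1a, Hspa1b and their sum only. Their upper ends, 0.48, 0.35 and 0.43 on the log2 scale, lay below a 1.5-fold increase in that fit. Without WT library 7 the log2 fold changes moved up to 0.10, -0.08 and 0.03. The intervals without it are not given here, so no upper bound is stated for those libraries.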
